A study of Mus musculus with 3 samples.

Results

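Blood stem cell niche factors are the stromal products that hold, feed and instruct blood-forming cells in the marrow. The 9 genes chosen by symbol were Cxcl12, Kitl, Vcam1, Angpt1, Il7, Thpo, Gas6, Foxc1 and Nes. The platform annotation gave 21 probe sets for 8 of them, out of 34945 probe sets that carry a single gene symbol for 18193 genes. Thpo, which encodes thrombopoietin, was matched to no probe set and is not analysed here. The choice used gene names, with no signal or ratio in the rule.

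All 3 samples were endosteal cells, that is cells from the inner bone surface, of C57BL/6 mice. Femur and tibia fragments were digested with collagenase, cells bearing CD45 (blood), CD31 (endothelium) or Ter119 (erythroid) were removed, and the rest was sorted by 2 surface proteins. The groups were PDGFRa(-)Sca-1(-), PDGFRa(+)Sca-1(-) and PDGFRa(+)Sca-1(+) cells. PDGFRa, a growth factor receptor, is carried by mesenchymal cells, whose progenitors are often enriched by the surface antigen Sca-1. The labels give neither treatment, age nor the number of mice pooled, and each population had 1 array. No difference below therefore has a replicate check or a p-value, and each comparison sets 1 library against another.

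In the marrow, reticular and perivascular stromal cells secrete the chemokine CXCL12 and display stem cell factor, and blood stem cells that carry the matching receptors CXCR4 and KIT are kept near them. Other products of such cells act on adhesion (VCAM1), on vessels and stem cell quiescence (angiopoietin-1) and on lymphoid precursors (interleukin-7). The transcription factor Foxc1 is known to maintain reticular stroma, and nestin, an intermediate filament protein, marks perivascular stromal cells in reporter mice.

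Signals are MAS5 intensities on a linear scale, each array brought to the same trimmed mean. A floor of 93.2, the mean of the 3 array medians, stood in for detection calls. A probe set under the floor on 1 of the arrays compared has only a bound, written "at least", and one under it on both has no ratio. A difference was called at 2-fold. With no second array, the scatter among probe sets that read 1 gene was the sole gauge of error, and it covers probes and transcripts rather than animals. Their log2 ratios scattered with an SD of 0.60 for PDGFRa(+)Sca-1(+) over PDGFRa(+)Sca-1(-) cells, 0.37 for PDGFRa(+)Sca-1(-) over PDGFRa(-)Sca-1(-) cells and 0.50 for PDGFRa(+)Sca-1(+) over PDGFRa(-)Sca-1(-) cells.

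The arrays were checked against the gates once. Pdgfra signal was 586 in PDGFRa(-)Sca-1(-), 2420 in PDGFRa(+)Sca-1(-) and 12846 in PDGFRa(+)Sca-1(+) cells, while Ptprc (CD45) and Pecam1 (CD31) stayed under the floor, with highest signals of 74.1 and 10.7. Cartilage markers were above the floor for 6 of 6 genes on all 3 arrays, with summed signals of 80570, 114965 and 8683 in the order PDGFRa(-)Sca-1(-), PDGFRa(+)Sca-1(-), PDGFRa(+)Sca-1(+). Of 6 measured osteoblast markers, 6, 6 and 5 were above the floor in that order, with summed signals of 42116, 108422 and 16487. Col1a1 alone gave 14417 of the last sum. In PDGFRa(+)Sca-1(+) cells 5 of 6 were 2-fold or more lower than in PDGFRa(+)Sca-1(-) cells, with a median log2 ratio of -5.06. The cartilage and osteoblast sums were both higher in PDGFRa(+)Sca-1(-) than in PDGFRa(-)Sca-1(-) cells, as were the Cxcl12, Kitl, Vcam1 and Nes signals given below. For cartilage this rested on 2 of 6 genes, Matn1 (2331 and 18704 in PDGFRa(-)Sca-1(-) and PDGFRa(+)Sca-1(-) cells) and Col10a1 (5071 and 24355). The other 4 were within 2-fold by their brightest probe sets, and the median log2 ratio of the 6 was 0.02. Of 7 fibroblast markers, 5 were 2-fold or more higher in PDGFRa(+)Sca-1(+) than in PDGFRa(+)Sca-1(-) cells, with a median log2 ratio of 5.41, and Cd34 read 172, 258 and 17639. Dcn and Lum, which carry most of the fibroblast sum on the Sca-1(-) arrays, were within 2-fold by their brightest probe sets. The other Dcn probe set had a log2 ratio of 1.94 for PDGFRa(+)Sca-1(+) over PDGFRa(+)Sca-1(-) cells. The fibroblast sums were 45853, 60737 and 116477. The part of these marker genes in the values below was not tested. In sorted bulk samples, fewer cells of a type and less RNA per cell cannot be told apart. The signal ratio of the 3' to the 5' control probe set of Actb was 2.99, 2.63 and 4.65 in the same order, so the PDGFRa(+)Sca-1(+) array favoured the 3' end most.

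Most of the 8 niche genes were brightest in PDGFRa(+)Sca-1(+) cells. Read by the brightest probe set of each gene, 6 of 8 were at least 2-fold higher there than in PDGFRa(+)Sca-1(-) cells (Cxcl12, Gas6, Angpt1, Vcam1, Kitl and Il7), Nes was lower and Foxc1 was not called. Over all 11855 genes compared between these arrays, 14.9% were higher and 11.3% lower. The median log2 ratio was 2.96 over the 8 genes and 0.07 over all genes. Between the Sca-1(-) populations, 4 of 8 genes were higher in PDGFRa(+) cells (Cxcl12, Nes, Vcam1 and Kitl) and 0 lower, against 4.82% higher and 5.63% lower among 11675 genes. The 8-gene median there was 0.72, and that of all genes -0.03. Between PDGFRa(+)Sca-1(+) and PDGFRa(-)Sca-1(-) cells, 5 of 8 genes were higher, 2 lower (Foxc1 and Nes) and Il7 was not called, against 14.5% higher and 12.2% lower among 11843 genes. These 3 comparisons share arrays and are not independent of each other. Since the genes were picked with earlier results of these data known, the counts describe them and support nothing further.

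Each probe set was also read separately. Of the 21, 9 were above the floor on all 3 arrays, 6 on 1 or 2 of them and 6 on none. Among the 15 probe sets with a ratio for PDGFRa(+)Sca-1(+) over PDGFRa(+)Sca-1(-) cells, 9 were higher and 2 lower, where 13.5% and 12.3% of all 21074 probe sets compared were. Between the Sca-1(-) arrays 6 of 13 were higher and 0 lower, where the shares of all probe sets were 5.04% and 4.86%. For PDGFRa(+)Sca-1(+) over PDGFRa(-)Sca-1(-) cells 9 of 15 were higher and 3 lower, where 12.9% and 12.2% of all probe sets were.

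**Figure D1:**
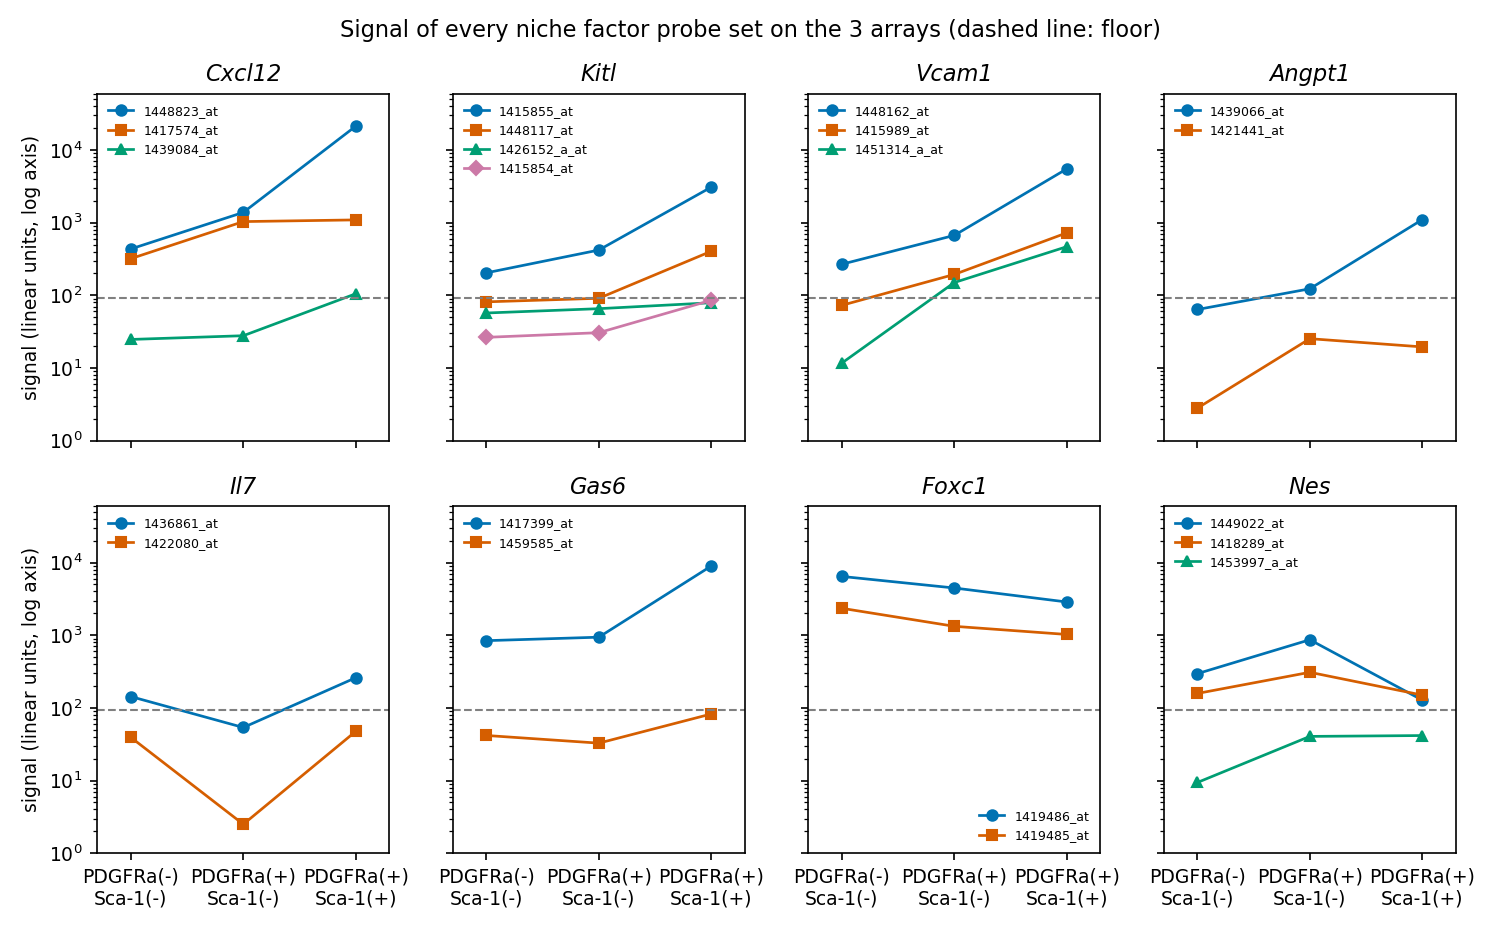
Signal of all 21 niche factor probe sets (linear units on a log axis) in the 3 sorted populations, 1 array each, with 1 panel per gene and 1 line per probe set, and the floor of 93.2 dashed. The brightest probe sets of Cxcl12, Kitl, Vcam1, Angpt1 and Gas6 are highest in PDGFRa(+)Sca-1(+) cells, Foxc1 is highest in PDGFRa(-)Sca-1(-) cells and Nes in PDGFRa(+)Sca-1(-) cells.

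Cxcl12 encodes the chemokine that retains blood stem cells in the marrow. Its brightest probe set, 1448823_at, had a signal of 435 in PDGFRa(-)Sca-1(-) cells, 1385 in PDGFRa(+)Sca-1(-) cells and 21288 in PDGFRa(+)Sca-1(+) cells. The signal was thus higher at each step, by 3.18-fold between the Sca-1(-) populations and by 15.4-fold from the Sca-1(-) to the Sca-1(+) population of PDGFRa(+) cells, 48.9-fold in all. The probe set 1417574_at read 320, 1035 and 1092 in the same order. It gave the same first step, 3.23-fold, but a ratio of only 1.06 for the second. The third, 1439084_at, was under the floor in both Sca-1(-) populations and read 105 in PDGFRa(+)Sca-1(+) cells, a bound of at least 1.13-fold.

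The 2 brighter Cxcl12 probe sets therefore gave nearly equal log2 ratios between the Sca-1(-) arrays, 1.67 and 1.69, and log2 ratios of 3.94 and 0.08 between the PDGFRa(+) arrays. A spread of 3.86 or more over the measured probe sets of a gene occurred for 5 of 4300 genes in that comparison, 0.116%, Cxcl12 included. The platform annotation lists a different target sequence for each Cxcl12 probe set. The 3' to 5' ratio of Actb differed between the same arrays, 4.65 against 2.63, and its part in the disagreement was not tested. The 15.4-fold value rests on 1 of 2 well-measured probe sets.

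Kitl encodes stem cell factor, the ligand of KIT. Its brightest probe set, 1415855_at, read 204 in PDGFRa(-)Sca-1(-), 420 in PDGFRa(+)Sca-1(-) and 3084 in PDGFRa(+)Sca-1(+) cells. The Sca-1(+) population was 7.35-fold above the Sca-1(-) population of PDGFRa(+) cells, and the latter 2.06-fold above PDGFRa(-)Sca-1(-) cells. That smaller difference sits at the threshold and was no longer called with the floor at the 67th percentile (log2 ratio 0.71) or with a pseudocount in place of the floor (0.94). The probe set 1448117_at, under the floor at 81.3 and 91.0 on the Sca-1(-) arrays, read 404 in PDGFRa(+)Sca-1(+) cells, at least 4.34-fold higher. The other 2 were under the floor on every array, though both were highest in PDGFRa(+)Sca-1(+) cells, at 85.4 and 79.0. For 3 of the 4 Kitl probe sets, among them the brightest and 1 of those under the floor throughout, the annotation lists the same target sequence.

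The DNA just before the start sites of Cxcl12 and Kitl is shown because these factors, the classical pair of the niche, were both highest in PDGFRa(+)Sca-1(+) cells. The sequences are RefSeq's for GRCm38.p6, 250 bases up to the start site, 5′ to 3′ on the gene's strand. Capitals mark GC boxes (GGGCGG on either strand), known to be bound by Sp factors, and in Kitl also a TATA box (TATAAA). The Cxcl12 stretch is chr6:117168285-117168534 on the plus strand, and the Kitl stretch chr10:100015571-100015820, also on the plus strand.
Cxcl12: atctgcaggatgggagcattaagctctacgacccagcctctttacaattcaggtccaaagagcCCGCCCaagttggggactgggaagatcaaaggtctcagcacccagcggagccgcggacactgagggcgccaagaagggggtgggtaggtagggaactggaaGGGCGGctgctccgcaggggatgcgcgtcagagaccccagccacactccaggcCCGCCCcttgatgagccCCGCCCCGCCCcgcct
Kitl: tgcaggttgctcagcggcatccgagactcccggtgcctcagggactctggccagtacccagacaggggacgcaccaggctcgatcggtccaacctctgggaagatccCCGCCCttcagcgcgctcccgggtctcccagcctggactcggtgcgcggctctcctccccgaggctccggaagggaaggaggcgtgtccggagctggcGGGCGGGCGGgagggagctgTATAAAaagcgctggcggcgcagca

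The promoter table held 6 of the 9 genes (Cxcl12, Kitl, Gas6, Foxc1, Nes and Thpo), and motifs were searched on both strands of its 300-base windows, which run 50 bases past the start site. A GC box, a motif added after the sequences had been read, occurred in all 6 genes and in 35.7% of the 32851 windows. The TATA box was matched in Kitl alone of the 6, from 25 to 20 bases before the start site, and in 13.6% of all windows. An EBF palindrome (TCCC, any 2 bases, GGGA), a forkhead core (GTAAACA), an NF-kB motif (GGG, any 2 bases, TT, any base, CC) and a hypoxia response element (NACGTGC) had no match in any of the 6. Over all windows these motifs occurred in 0.904%, 3.65%, 4.79% and 5.91% respectively. GC content was 64.7% for Cxcl12 and 68.7% for Kitl, and the median window had 52.7%. The matches are letters in a window and say nothing of binding.

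Il7 encodes interleukin-7, a growth factor of lymphoid precursors. Its brighter probe set, 1436861_at, read 143 in PDGFRa(-)Sca-1(-), 53.7 in PDGFRa(+)Sca-1(-) and 260 in PDGFRa(+)Sca-1(+) cells. It was the one niche gene whose lowest signal was in PDGFRa(+)Sca-1(-) cells by the brightest probe set. PDGFRa(+)Sca-1(+) cells were at least 2.79-fold above PDGFRa(+)Sca-1(-) cells and 1.82-fold above PDGFRa(-)Sca-1(-) cells. With the floor at the 67th percentile, the log2 ratio behind the first of these was 0.02, in place of 1.48. The other probe set, 1422080_at, stayed under the floor, with a highest signal of 47.5.

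Angpt1 encodes angiopoietin-1, a ligand of the receptor TIE2. The probe set 1439066_at read 63.8, under the floor, in PDGFRa(-)Sca-1(-) cells, 123 in PDGFRa(+)Sca-1(-) cells and 1101 in PDGFRa(+)Sca-1(+) cells. The Sca-1(+) population was 8.92-fold above the PDGFRa(+)Sca-1(-) and at least 11.8-fold above the PDGFRa(-)Sca-1(-) population. Both Sca-1(-) populations lay near the floor, and no 2-fold difference between them could be called. The probe set 1421441_at was under the floor throughout, at 25.3 or less.

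Gas6 encodes a ligand of the TAM receptors Tyro3, Axl and Mertk. Its probe set 1417399_at read 842 in PDGFRa(-)Sca-1(-), 940 in PDGFRa(+)Sca-1(-) and 8970 in PDGFRa(+)Sca-1(+) cells. Unlike Cxcl12, Kitl and Vcam1, it was not called between the Sca-1(-) populations, which differed by 1.12-fold, while the Sca-1(+) population was 9.54-fold and 10.6-fold above them. Whether this pattern differs from that of Cxcl12 was not tested, since no replicate exists. The other probe set, 1459585_at, was under the floor, with a highest signal of 82.4, in PDGFRa(+)Sca-1(+) cells.

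Vcam1 encodes the adhesion molecule that blood cells bind through the integrin VLA-4. All 3 of its probe sets were highest in PDGFRa(+)Sca-1(+) and lowest in PDGFRa(-)Sca-1(-) cells. The brightest, 1448162_at, read 268 in PDGFRa(-)Sca-1(-), 669 in PDGFRa(+)Sca-1(-) and 5497 in PDGFRa(+)Sca-1(+) cells, 2.50-fold and then 8.22-fold higher. The probe sets 1415989_at and 1451314_a_at gave smaller ratios for the second step, 3.73-fold and 3.12-fold. Their signals in PDGFRa(-)Sca-1(-) cells, 72.9 and 11.7, were under the floor, which leaves bounds of at least 2.09-fold and at least 1.61-fold for the first. Vcam1 was thus the niche gene with the most probe sets called in the same direction between the PDGFRa(+) populations, 3 of 3. With the floor at the 67th percentile, 1451314_a_at was no longer called there, at a log2 ratio of 0.87 in place of 1.64.

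Foxc1 encodes a forkhead transcription factor of reticular stroma, and it went against the secreted factors. The probe set 1419486_at read 6447 in PDGFRa(-)Sca-1(-), 4470 in PDGFRa(+)Sca-1(-) and 2869 in PDGFRa(+)Sca-1(+) cells. The other, 1419485_at, read 2348, 1327 and 1025 in the same order, so both were highest where Cxcl12 was lowest and lowest where it was highest. Neither neighbouring pair of populations differed by 2-fold, with ratios of 1.29 to 1.77. Between the extremes PDGFRa(+)Sca-1(+) cells were 2.25-fold and 2.29-fold lower, with log2 ratios of -1.17 and -1.20. The close agreement of both probe sets concerns 1 listed target sequence.

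Nes encodes nestin. It was highest in PDGFRa(+)Sca-1(-) cells by both probe sets above the floor. The probe set 1449022_at read 296 in PDGFRa(-)Sca-1(-), 867 in PDGFRa(+)Sca-1(-) and 128 in PDGFRa(+)Sca-1(+) cells. The last was 6.79-fold below PDGFRa(+)Sca-1(-) cells and 2.32-fold below PDGFRa(-)Sca-1(-) cells. The probe set 1418289_at read 158, 309 and 150, a 2.06-fold difference between the PDGFRa(+) populations and one of 1.05-fold between the extremes. The lower Nes signal of PDGFRa(+)Sca-1(+) than of PDGFRa(-)Sca-1(-) cells thus rests on 1 probe set, and with the floor at the 67th percentile its log2 ratio went from -1.21 to -0.21. The 2.06-fold difference of 1418289_at was no longer called at that floor (log2 ratio -0.27, in place of -1.04) or with a pseudocount (-0.9). The third, 1453997_a_at, stayed under the floor, at 41.6 or less. Nestin is also made by glia. The summed signal of 4 Schwann and glial markers was 15987, 11558 and 1384 in the same order, carried by S100b (8404, 5800 and 1092) and Ncmap (7415, 4977 and 85.4), which were highest in PDGFRa(-)Sca-1(-) cells. Cdh19, a gene of Schwann cell precursors, peaked in PDGFRa(+)Sca-1(-) cells with Nes, at 114, 697 and 83.7. The probe sets of Sox10, the defining glial factor, disagreed: 1424985_a_at read 54.7, 83.8 and 123, 1451689_a_at read 94.7, 145 and 14.8, and 1425369_a_at was under the floor throughout. The part of these genes in the Nes signal was not tested.

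**Figure D2:**
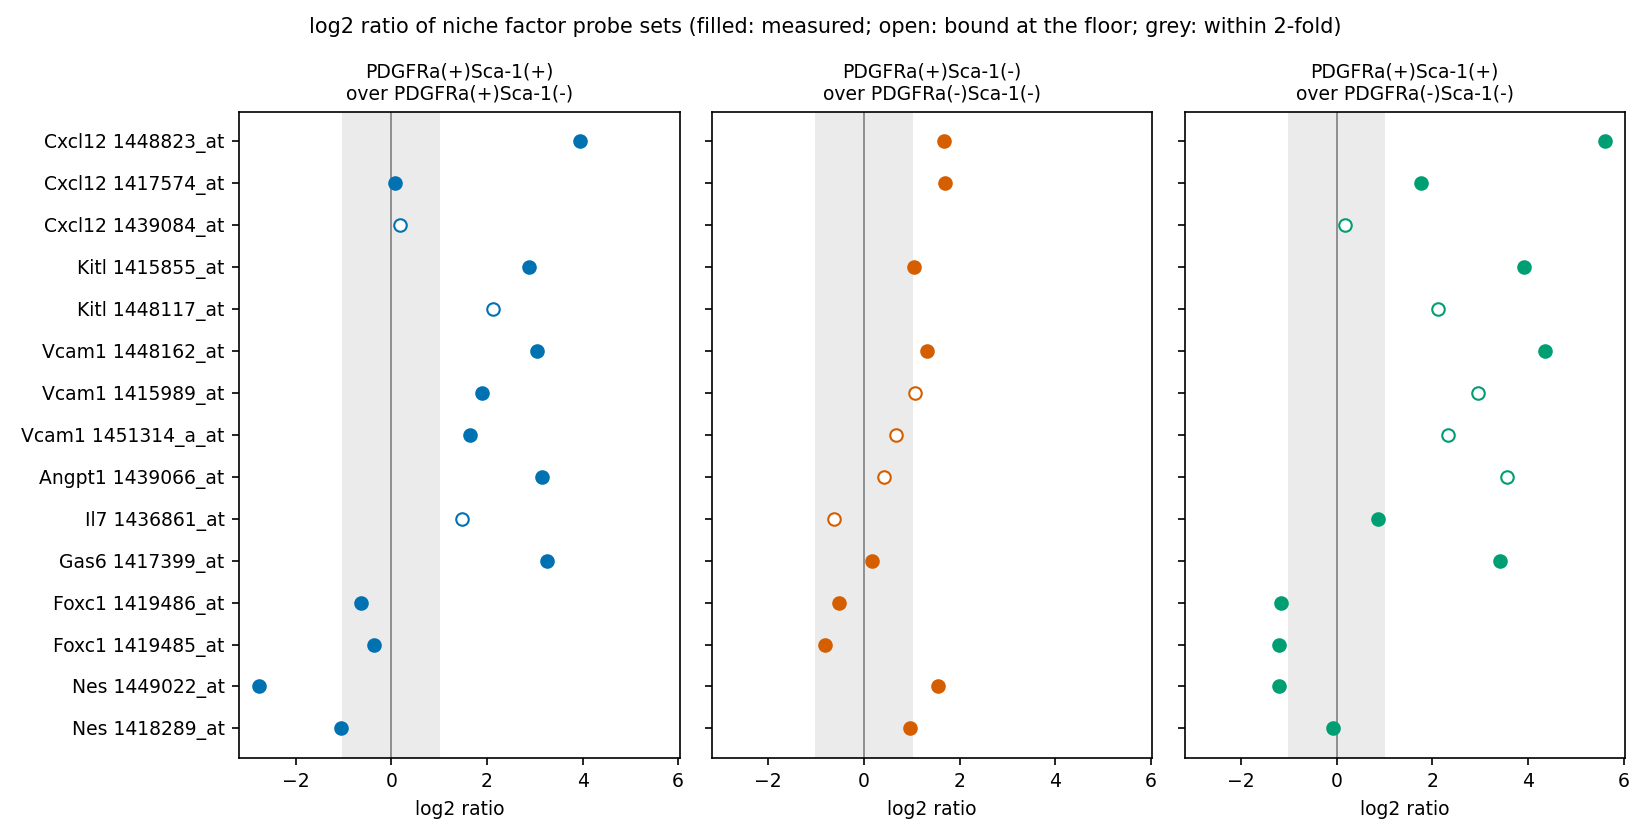
log2 ratio (x axis) of the 15 niche factor probe sets above the floor on at least 1 array (y axis), 1 panel per comparison, 1 array per population. Filled points are measured on both arrays, open points are bounds set by the floor, and the grey band spans ratios under 2-fold. Cxcl12 1448823_at and 1417574_at coincide in the middle panel, at 1.67 and 1.69, and stand apart in the left one, at 3.94 and 0.08.

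Marker lists of blood and vessel cells were read beside these values. Of 10 endothelial markers, 1 was above the floor in PDGFRa(-)Sca-1(-), 3 in PDGFRa(+)Sca-1(-) and 1 in PDGFRa(+)Sca-1(+) cells, with summed signals of 466, 533 and 379. None was at 0, and the endothelial cadherin gene Cdh5 reached at most 37.9. Kdr, the marker above the floor in PDGFRa(+)Sca-1(+) cells, read 67.1, 110 and 155. Egfl7 went the other way, at 112, 98.5 and 67.7. Of 8 macrophage markers, 1 or 2 were above the floor on each array and the summed signals were 548, 593 and 441, with C1qa at 4.6 or less. The summed signal of 8 neutrophil precursor markers was 631 in PDGFRa(-)Sca-1(-), 3115 in PDGFRa(+)Sca-1(-) and 2748 in PDGFRa(+)Sca-1(+) cells, so they moved with the higher Cxcl12, Kitl, Vcam1 and Nes signals of PDGFRa(+)Sca-1(-) over PDGFRa(-)Sca-1(-) cells, and their part there was not tested. Between the PDGFRa(+) populations 8 of 8 were within 2-fold. Of 6 megakaryocyte markers, 5, 2 and 4 were above the floor in the order PDGFRa(-)Sca-1(-), PDGFRa(+)Sca-1(-), PDGFRa(+)Sca-1(+), with summed signals of 1754, 1017 and 1781. Itga2b, the platelet integrin gene, read 465, 356 and 1224, while Pf4 read 94.4, 63.1 and 104. Gp1bb and Ppbp went the other way and were lowest in PDGFRa(+)Sca-1(+) cells, at 946, 479 and 307 and at 146, 56.1 and 44.8. Of 5 osteoclast markers, 1, 1 and 2 were above the floor, with sums of 270, 365 and 598 and Acp5 at 164, 256 and 428. The megakaryocyte sums of PDGFRa(-)Sca-1(-) and PDGFRa(+)Sca-1(+) cells were nearly equal. The osteoclast sum was highest in PDGFRa(+)Sca-1(+) cells, as were Vcam1 and Gas6, and the part of both marker lists was not tested. The sums of 10 general blood markers (1320, 2243 and 734), 6 erythroid markers (802, 528 and 267) and 6 skeletal muscle markers (601, 805 and 289) were lowest there.

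The receptors of the niche factors were mostly dim. Of 12 receptor genes measured, 4 were under the floor on all arrays: Cxcr4 (CXCL12 receptor), Kit (stem cell factor receptor), Il7r (interleukin-7 receptor) and Tie1 (partner of the angiopoietin receptor). Their highest signals were 30.2, 47.2, 53.5 and 3.4. Between the PDGFRa(+) populations 2 of 6 compared receptors were higher in Sca-1(+) cells and 1 lower, with a median log2 ratio of 0.29. Of all genes compared between these arrays, 14.9% were higher and 11.3% lower. Axl, a GAS6 receptor, read 301 in PDGFRa(-)Sca-1(-), 252 in PDGFRa(+)Sca-1(-) and 5230 in PDGFRa(+)Sca-1(+) cells, 20.8-fold higher in the last than in PDGFRa(+)Sca-1(-) cells. Mertk, another GAS6 receptor, read 734, 969 and 255, 3.80-fold lower. The ligand gene Gas6 and 1 of its receptor genes were thus highest in the same population, in which another receptor gene was lowest.

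Tek, which encodes the angiopoietin receptor TIE2 and is best known from endothelium, read 13.3 and 37.4, under the floor, in PDGFRa(-)Sca-1(-) and PDGFRa(+)Sca-1(-) cells and 888 in PDGFRa(+)Sca-1(+) cells, at least 9.53-fold higher. Its ligand gene Angpt1 was highest there too, while Pecam1 was at 4.69. The endothelial marker Kdr was also highest in that population, at 155, and its part in the Tek signal was not tested. Ackr3, which encodes a scavenging CXCL12 receptor, was far above the floor on each array, at 8479, 13929 and 19376. Its ratio was 2.29 between the extremes and under 2-fold at each step. Itgb1, the beta chain of VLA-4, differed by at most 1.20-fold, from 1343 to 1606. Itga4, the alpha chain, was above the floor only in PDGFRa(-)Sca-1(-) cells, at 192.

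**Figure D3:**
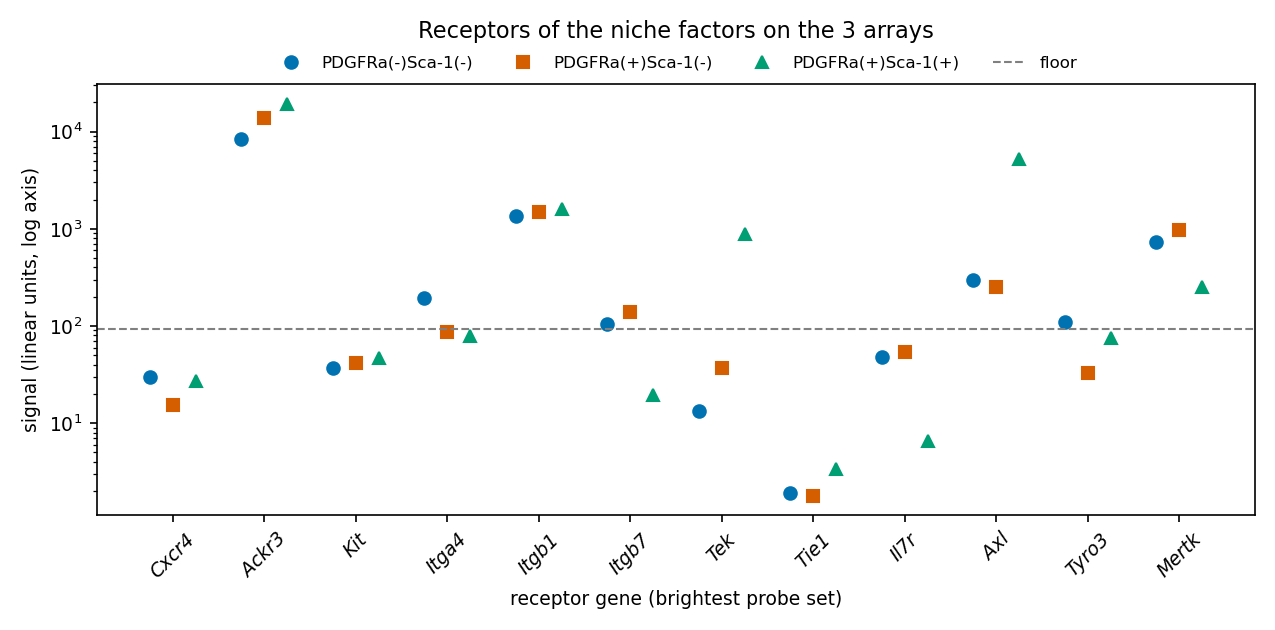
Signal (linear units on a log axis) of the 12 measured receptor genes of the niche factors, brightest probe set of each, with 1 point per population and array and the floor of 93.2 dashed. Axl and Tek are highest in PDGFRa(+)Sca-1(+) cells, at 5230 and 888, and Cxcr4, Kit, Il7r and Tie1 lie under the floor in each population.

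Other ligands of these receptors and enzymes that trim the factors were higher in PDGFRa(+)Sca-1(+) than in PDGFRa(+)Sca-1(-) cells for 5 of 11 genes compared, and lower for 0, with a median log2 ratio of 0.76. The shares of all genes were 14.9% higher and 11.3% lower. Dpp4, the peptidase that clips and inactivates CXCL12, read 1607 in PDGFRa(+)Sca-1(+) cells and 19.6 and 16.2 in the others, at least 17.2-fold higher, although the lowest of its probe sets with a ratio had a log2 bound of 0.22. Pros1, which encodes protein S, the other TAM ligand, read 1449, 877 and 4016, 4.58-fold higher than in PDGFRa(+)Sca-1(-) cells. Angpt4, an angiopoietin, read 31.8, 112 and 317. Adam10, a sheddase, read 933, 2096 and 3528, a 3.78-fold difference between the extremes. Fn1, which encodes fibronectin, a matrix ligand of VLA-4, was within 1.13-fold by its brightest probe set, at 27220 to 30629 near the top of the array range. Its other probe set had a log2 ratio of -3.25 between the PDGFRa(+) populations.

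Among other haematopoietic cytokines and signals, 10 of 18 genes compared were higher in PDGFRa(+)Sca-1(+) than in PDGFRa(+)Sca-1(-) cells and 4 lower, with a median log2 ratio of 1.21. Between the Sca-1(-) populations 1 of 18 was higher in PDGFRa(+) cells and 2 lower, with a median of 0.03. The shares of all genes, higher and lower, were 14.9% and 11.3% in the former comparison and 4.82% and 5.63% in the latter. Fgf7, a growth factor for epithelium, read 48.1, 152 and 2905 in the order PDGFRa(-)Sca-1(-), PDGFRa(+)Sca-1(-), PDGFRa(+)Sca-1(+). The monocyte chemokine gene Ccl2 read 66.6, 101 and 2617. Il6 had its lowest signal in PDGFRa(+)Sca-1(-) cells, as Il7 had, at 4055, 427 and 8740. Cdh2, the N-cadherin gene, shared the peak of Nes in PDGFRa(+)Sca-1(-) cells, at 172, 1814 and 44.2. Igf2 (949 to 1075) and the Notch ligand gene Dll1 (128 to 251) stayed within 2-fold.

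Reticular stroma genes, which mark the cells that Cxcl12 and Foxc1 are known from, were higher in PDGFRa(+)Sca-1(+) than in PDGFRa(+)Sca-1(-) cells for 12 of 17 compared and lower for 2, with a median log2 ratio of 1.93. Between the Sca-1(-) populations 7 of 17 were higher in PDGFRa(+) cells and 2 lower, with a median of 0.92. Over all genes the shares higher and lower were 14.9% and 11.3% in the former comparison and 4.82% and 5.63% in the latter. Ebf1, a transcription factor of such stroma, read 189, 391 and 7381, 18.9-fold higher in PDGFRa(+)Sca-1(+) than in PDGFRa(+)Sca-1(-) cells, the opposite order to Foxc1. Dpep1, a dipeptidase gene, read 8.9, 223 and 3382. Serping1, the C1 inhibitor gene, read 1329, 3311 and 31357. Agt, the angiotensinogen gene, was under the floor in PDGFRa(+)Sca-1(+) cells, at 16.3, and read 705 and 1466 in the others. The leptin receptor gene Lepr, used to trace this stroma, read 224, 490 and 2495. Adipoq, the other lower gene of the list, was above the floor only in PDGFRa(+)Sca-1(-) cells, at 79.5, 294 and 58.4. Grem1 was above the floor only in PDGFRa(-)Sca-1(-) cells, at 328, 71.3 and 59.8.

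Intermediate filament and pericyte genes, the company in which Nes is usually read, gave 3 of 9 higher and 1 lower in PDGFRa(+)Sca-1(+) than in PDGFRa(+)Sca-1(-) cells, with a median log2 ratio of -0.07. Among all genes 14.9% were higher and 11.3% lower. Rgs5, a pericyte gene, read 185, 168 and 1503, although the lowest and highest log2 ratios among its probe sets were 0.40 and 3.16. Cspg4, which encodes NG2, read 10403, 10083 and 2059, lowest where Nes was lowest. Notch3, a receptor of mural cells, read 156, 130 and 415. Tagln, a smooth muscle gene, was highest in PDGFRa(-)Sca-1(-) cells, at 2240, 333 and 201. Vim (17258 to 31971) and Des (113 to 166), the other filament genes named by rule, stayed within 2-fold by their brightest probe sets. Another Vim probe set, 1456292_a_at, read 13039, 9336 and 26605, 2.85-fold higher in PDGFRa(+)Sca-1(+) than in PDGFRa(+)Sca-1(-) cells.

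**Figure D4:**
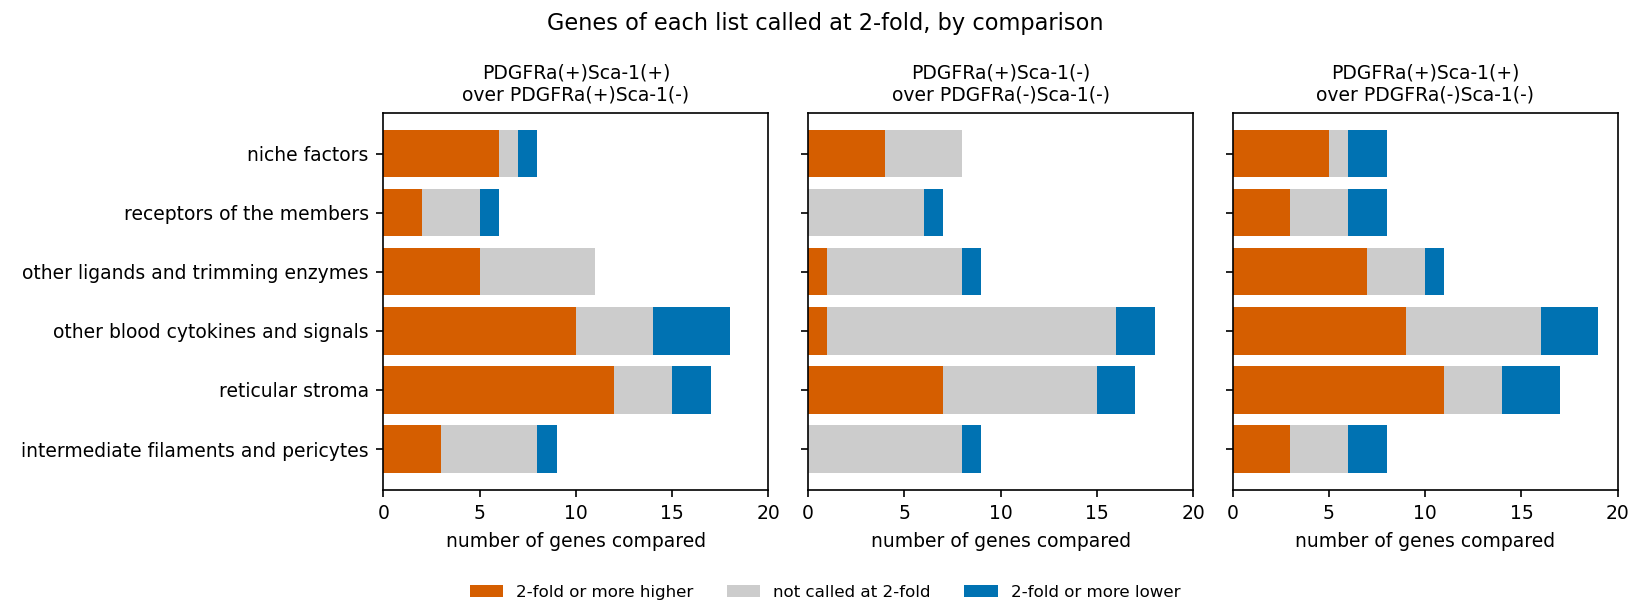
Number of genes compared (x axis) in the niche factor list and 5 related lists (y axis), split into those 2-fold or more higher, not called, and 2-fold or more lower, 1 panel per comparison, 1 array per population. Reticular stroma (12 of 17) and niche factors (6 of 8) have the larger shares of higher genes in the left panel, while 2 of 6 receptors are higher. Of all genes in that comparison, 14.9% are higher and 11.3% lower.

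The genes with the most similar patterns were found by the Euclidean distance between log2 signals centred on their mean over the 3 arrays, among 8033 genes above the floor on all of them and at least 4 times above it on 1. With 3 arrays many genes lie close by, so the names describe these arrays only. Nearest to Cxcl12 were Mgst1, Ifitm3 and Sfrp4, at distances of 0.255, 0.263 and 0.336. Kitl had Lpl, the lipoprotein lipase gene, at 0.094, followed by Nid1 (0.173) and Angptl1 (0.225). Next to Vcam1 lay Fgl2 (0.084), Serping1 (0.166) and Svep1 (0.243). Gas6 was closest to Uts2r (0.043), Coro2b (0.082) and Dbn1 (0.090). For Foxc1 the names were Mrps18b (0.023), Lrp12 (0.029) and Kdm1a (0.031). Nes had Gpld1 (0.022), which read 470, 1403 and 203, then Itga1 (0.119) and Gprc5a (0.156). Lpl and Serping1 were also in the reticular stroma list.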

How the data were processed

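Total RNA from 3 sorted populations was amplified with a two-cycle assay, biotin-labelled and hybridised to Affymetrix arrays, 1 per population, per the labels' protocols. The deposited values are probe set intensity values on a linear scale, computed with MAS5 per the submitters' processing notes. Its version, detection calls and filters were not given in the sources used here. The 2% trimmed mean of the values was 500 on each array. The number of arrays limits the precision.

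The following was computed here with Python 3.11.15, numpy 2.4.6 and pandas 2.3.3. The 64 control probe sets were dropped and the arrays were brought to 1 shared 2% trimmed mean over the other 45037. Lower signals were set to the floor of 93.2, and then log2 was taken. The platform annotation supplied gene names: 34945 probe sets had 1 symbol, 932 several and 9160 none, and all 21 niche factor probe sets matched RefSeq (GRCm38.p6) by gene number with the same symbol. A gene was read by its brightest probe set, by mean log2 signal. The counting steps were tried on simulated data, with known fold changes put into genes whose mean signal was at least 4 times the floor. That trial checks the counting steps and says nothing of genes near the floor. No test of a difference between populations was possible with 1 array each.

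The genes, lists and naming rule were chosen with earlier results of these data known. From each related list the rule took up to 4 genes with the largest ratios and up to 2 within 2-fold on all comparisons and above the floor on all arrays, and for each niche gene above the floor on all arrays the 3 nearest patterns. Lepr, Adipoq, Grem1, Itga4, the single marker genes of other cells and the receptors under the floor fall outside it and were named after their values were seen. Alternatives were a floor at the 33rd or 67th percentile, quantile normalization, no further scaling, the mean over probe sets, plain probe sets only, thresholds of 1.5-fold and 3-fold, and a pseudocount of 32 without a floor. Marker genes of other cells are given as lists with summed signals.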

Additional observations from a re-analysis of the deposited data

How the results depend on the processing

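The counts of niche genes at 2-fold stayed within 1.5 times of those reported under quantile normalization, under no further scaling and with plain probe sets alone, in all 3 comparisons and both directions. Elsewhere some moved. For PDGFRa(+)Sca-1(-) over PDGFRa(-)Sca-1(-) cells, the count of higher genes went from 4 to 2 with the mean over probe sets and to 1 at 3-fold. The shares of all genes were 4.82%, 3.15% and 1.73%. The count of lower genes went from 0 to 1 with the floor at the 33rd percentile and to 1 at 1.5-fold, with shares of 5.63%, 6.35% and 15.2%. With the floor at the 67th percentile, 6 of the 8 niche genes were still compared between these arrays. For PDGFRa(+)Sca-1(+) over PDGFRa(-)Sca-1(-) cells, the count of lower genes went from 2 to 1 with the floor at the 67th percentile, to 1 with the mean over probe sets and to 0 at 3-fold. The shares of all genes were 12.2%, 10.7%, 9.36% and 6.03%. For PDGFRa(+)Sca-1(+) over PDGFRa(+)Sca-1(-) cells, the count of lower genes went from 1 to 2 at 1.5-fold, with shares of all genes of 11.3% and 20.1%. The count of higher genes ran from 5 to 6, while the share of all genes ran from 7.09% at 3-fold to 26.6% at 1.5-fold. Changes at other thresholds follow from the threshold itself, and for the rest the cause was not tested. Of 208 ratios of single probe sets under the alternatives, 182 moved by less than the scatter between probe sets, 26 by more and 0 changed sign from a called value, while 19 crossed 2-fold. Ratios lost because both arrays fell under the floor at the 67th percentile are in none of these counts. Among those lost was the Vcam1 1415989_at ratio between the Sca-1(-) arrays, called with the main floor at a log2 ratio of 1.06. No paired analysis was possible because each population had 1 array. Signals near the floor limit Il7, Angpt1, Nes, the dimmest Cxcl12 probe set and the dimmer probe sets of Kitl and Vcam1.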
